A study of Mus musculus with 84 samples.

Results

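The genes described here encode the proteins that hold synaptic vesicles, dock them at the nerve terminal and fuse them with its membrane. They were chosen by name, as every synaptotagmin (Syt), syntaxin (Stx), syntaxin-binding protein (Stxbp), vesicle-associated membrane protein (Vamp), complexin (Cplx), SV2 protein and synapsin (Syn) in the count table, with Snap23, Snap25, Snap29 and Snap47. This gave 60 of the 19685 genes listed, and the naming rule uses no measured value. Of the 60, 48 were measured, meaning that they had a count in at least 8 of the 84 cells. The other 12 were Cplx3, Cplx4, Stx11, Stx19, Sv2c, Syt2, Syt8, Syt10, Syt12, Syt14, Syt15 and Syt17.

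The cells were single neurons drawn into a patch-clamp pipette from acute slices of the prefrontal cortex of untreated C57/BL6/N mice, and their polyadenylated RNA was amplified and sequenced. The sample titles mark 25 neurons with the letter F and 59 with the letter P. The series title speaks of fast-spiking cells, which are GABAergic interneurons of the cortex, and of pyramidal cells, its glutamatergic projection neurons, but no label spells out the letters, so the groups keep the names F and P. Age, sex and genotype were not given in the labels, and no label ties a cell to an animal, so each group counts as 1 sample and no test across cells was made. All differences below are descriptions of these cells.

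Fusion is driven by SNARE proteins, which zip together from both membranes: a VAMP on the vesicle, a syntaxin and a SNAP-25 relative on the target membrane. Syntaxin-binding proteins hold the syntaxin and guide or hold back the assembly. Synaptotagmins sense the calcium that enters during an action potential, and complexins bind the assembled SNAREs and regulate the last step. SV2 proteins and synapsins sit on the vesicle, the first as membrane glycoproteins that bind synaptotagmin and the second as phosphoproteins that tether vesicles in a reserve pool.

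The depth of the libraries and the purity of the groups bear on every value that follows. The F libraries totalled 36594 to 12043599 counts (median 680044) and the P libraries 19802 to 16251918 (median 2706396). A set of 16 F libraries (F13 to F28) stood apart, because all 16 held at least 2 counts each of Klhl18, Celsr1 and Pno1, which no other library did, and their median total was 246319. The other 9 F libraries had a median of 2707087 counts, close to that of P cells, and results are given with and without the 16. The 16 are called below the libraries that share reads. This name stands for the rule alone, and whether reads passed between libraries was not tested. Klhl18, Celsr1 and Pno1 also had a count in 11, 18 and 12 P cells and each in 6 of the other 9 F cells. All 9 had a higher summed level of 18 GABAergic markers than of 15 glutamatergic markers, whereas this held in 7 of the 16 and in 7 of the 59 P cells. In counts per 1000000 of the cell's total (CPM), the median GABAergic sum was 3191 among F and 17.1 among P cells, and the glutamatergic sum 254 and 1464. Pvalb, a marker of many fast-spiking cells, was rarely read anywhere, with no count in the 16, and a count in 2 of the other 9 F cells and 5 P cells. Sums of astrocyte, oligodendrocyte and microglial markers also reached 18170, 21411 and 39203 CPM in single F cells and 100013, 12420 and 19269 CPM in single P cells. Their part in the results was not tested.

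How many members a cell showed went with its depth. P cells had a count of 1 to 44 of the 60 members, with a median of 20, and F cells of 1 to 35, with a median of 12. The median was 9.5 in the 16 F libraries that share reads and 22 in the other 9. After each cell was thinned to 86539 counts, which left 22 F and 53 P cells, the medians were 9 and 12, and the 9 other F cells also had a median of 12. The number of members found and the total count had a Spearman correlation of 0.81 over 25 F cells and 0.75 over 59 P cells. The ranges of the groups overlapped almost entirely.

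**Figure D1:**
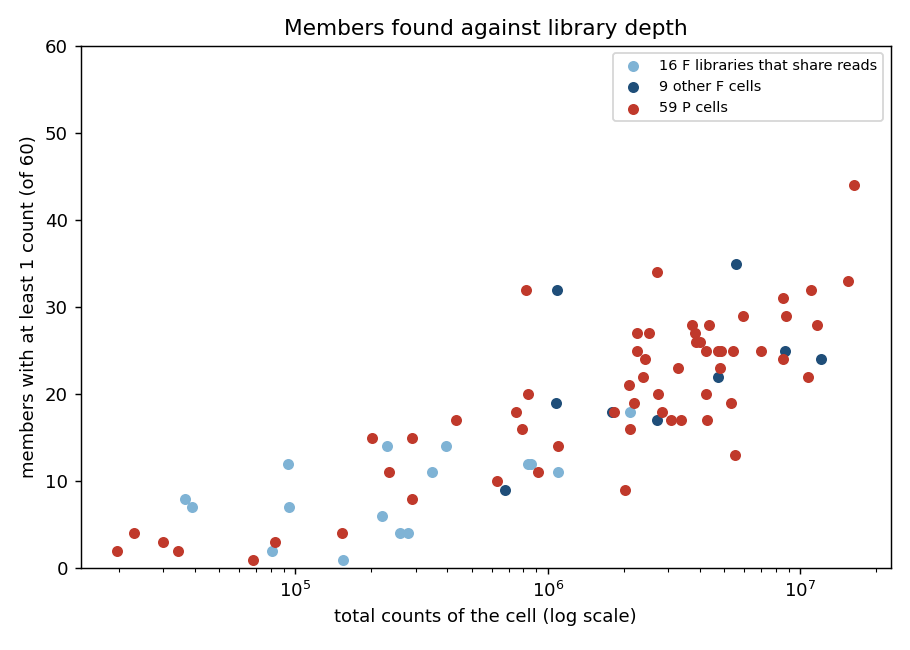
Members with at least 1 count (of 60) against the total counts of each cell (log scale), 1 point per cell, for the 16 F libraries that share reads, the 9 other F cells and the 59 P cells. Deeper cells show more members in all 3 sets, and the 9 other F cells, from 9 to 35 members, lie among the P cells.

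Few members were found in most cells. In P cells 15 of the 60 had a count in more than 50% of the cells, and in F cells 7 had. The commonest in P cells were Syt11 with 54 of 59 cells, Snap25 with 51, Syt7 with 46 and Syt1 with 45. In F cells they were Snap25 with 21 of 25 and Syt1 and Syt11 with 19 each. In the 9 other F cells Syt1, Syt11 and Syn1 were found in all 9. For most members a single cell supplied the bulk of a group's mean: 1 cell held over 50% of the summed CPM of 34 of the 46 measured members with a count in F cells, and of 17 of 48 in P cells. Where this decides a difference the cell is named.

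**Figure D2:**
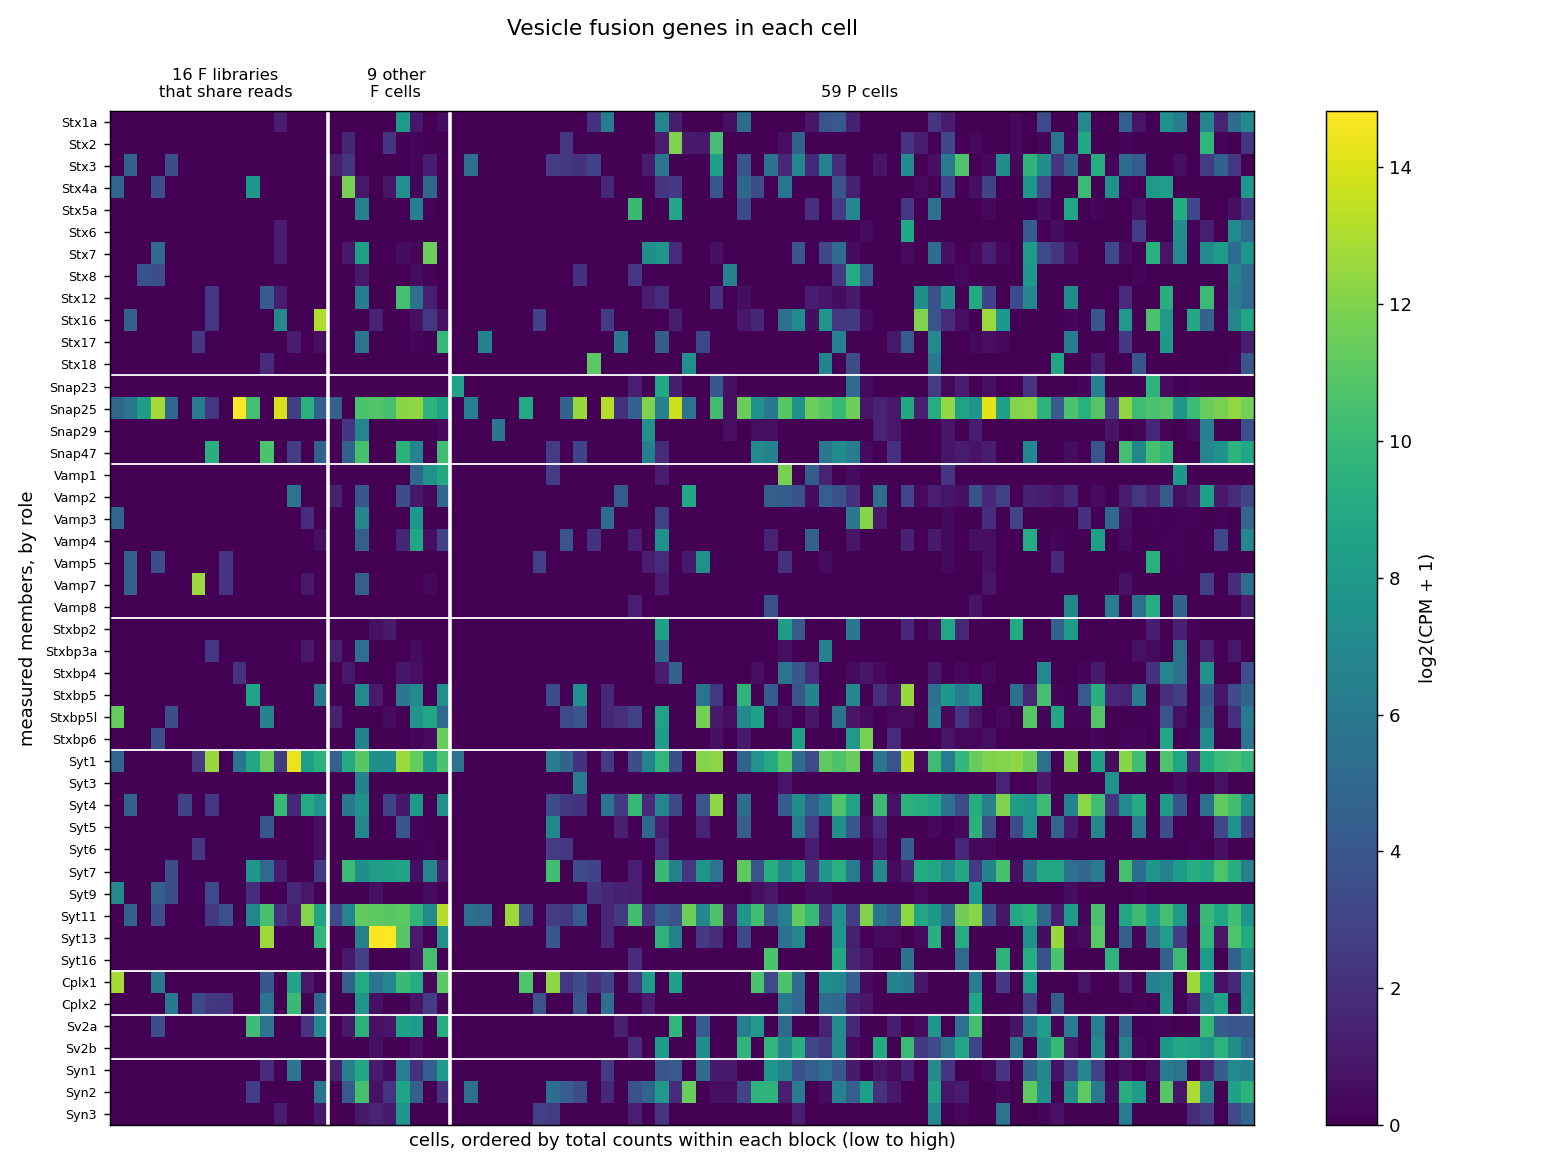
Level of 46 of the measured members, as log2(CPM + 1), by role (rows, separated by lines) in each of the 84 cells (columns, ordered by total counts within 3 blocks). Snap25, Syt1 and Syt11 form the most filled rows in all blocks, while the Sv2b row is dark in both F blocks and bright in many P cells.

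Differences are given as log2 folds, log2 of the mean CPM of F cells plus 1 over that of P cells plus 1, so that values below 0 are higher in P cells. Of the 48 measured members, 7 were at least 2-fold higher in F cells, beside 18.5% of all 11324 measured genes, and 22 were at least 2-fold lower, beside 46.4%. Both counts lie close to these shares of all genes. Of the 48, 19 had any higher mean in F cells, beside 34.7% of all measured genes, and the median log2 fold was -0.41 for the members and -0.79 for all measured genes. Without the 16 F libraries the counts were 13 higher, beside 19.3%, and 20 lower, beside 45.6%, with medians of -0.13 and -0.75. Among the cells called with bcl2fastq 1.8.4, 17 members were at least 2-fold lower, beside 41% of all measured genes, and 15 higher, beside 21.4%. Among those of the later version 28 were lower, beside 50.2%, and 5 higher, beside 18%. Both versions gave the same sign for 27 of the 48. After thinning to 86539 counts 23 were lower, beside 46.9%, and 8 higher, beside 18.7%. Of the 48, 18 were at least 2-fold lower in F cells with all F cells and without the 16, beside 36.6% of all measured genes, and 5 were at least 2-fold higher both ways, beside 10.8%. These counts too lie close to the shares of all genes.

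The clearest difference was within the SV2 family of vesicle glycoproteins. In cells with at least 10 counts of the family, Sv2a was the main form in F cells and Sv2b in most P cells. Many P cells held counts of both, among them P1, P2 and P25. The synapsins showed a weaker shift between Syn1 and Syn2. The stretches of 250 bases just before the first listed RefSeq start of these 4 genes are shown because the main form or mean share of these paralogs differed between the groups. They are from RefSeq on GRCm38.p6, 5′ to 3′ on the gene's own strand, at chr3:96180977-96181226 (plus) for Sv2a, chr7:75309263-75309512 (minus) for Sv2b, chrX:20920919-20921168 (minus) for Syn1 and chr6:115134652-115134901 (plus) for Syn2. Capitals mark exact matches on either strand to 4 motifs searched: the GC box GGGCGG, the TATA box TATAAA, the cyclic AMP response element TGACGTCA and TTCAGCACC, the first letters of the RE1 element of neuronal genes.
Sv2a: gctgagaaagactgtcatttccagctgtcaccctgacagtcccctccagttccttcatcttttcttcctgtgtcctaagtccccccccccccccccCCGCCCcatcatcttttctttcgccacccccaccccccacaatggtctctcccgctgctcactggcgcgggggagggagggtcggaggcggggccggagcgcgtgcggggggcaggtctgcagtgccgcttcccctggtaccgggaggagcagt
Sv2b: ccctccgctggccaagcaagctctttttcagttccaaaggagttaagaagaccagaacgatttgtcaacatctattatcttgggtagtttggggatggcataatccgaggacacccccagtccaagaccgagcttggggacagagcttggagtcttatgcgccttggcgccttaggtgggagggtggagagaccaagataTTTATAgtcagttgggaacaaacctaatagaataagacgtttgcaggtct
Syn1: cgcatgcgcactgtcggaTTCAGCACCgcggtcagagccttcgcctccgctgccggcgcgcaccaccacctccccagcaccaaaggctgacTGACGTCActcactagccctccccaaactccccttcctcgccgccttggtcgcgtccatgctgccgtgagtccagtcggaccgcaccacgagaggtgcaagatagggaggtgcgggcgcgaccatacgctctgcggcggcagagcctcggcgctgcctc
Syn2: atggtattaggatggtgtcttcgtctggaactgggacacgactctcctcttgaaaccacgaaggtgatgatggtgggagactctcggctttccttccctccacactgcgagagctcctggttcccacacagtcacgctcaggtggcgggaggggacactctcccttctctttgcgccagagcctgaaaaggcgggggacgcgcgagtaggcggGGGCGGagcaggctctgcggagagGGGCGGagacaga
The Sv2a window holds 1 GC box and that of Syn2 holds 2, whereas that of Sv2b has none and holds 1 TATA box. The Syn1 window holds 1 cyclic AMP response element and 1 RE1 start. The GC box was in 33% of 32536 promoter windows of this length and in 28 of the 45 members with a window, and the TATA box in 12.3% of all windows and in Sv2b and Stx3 among the members. The cyclic AMP response element was in 1.56% of all windows, the RE1 start in 0.301%, and both in Syn1 alone among the members. A match is a string of letters and does not show a bound site. The windows of Sv2a and Syn1 reach into the genes at the GENCODE positions given below, since RefSeq and GENCODE place these starts differently.

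Sv2b (ENSMUSG00000053025.13, mm10 chromosome 7, 75114894 to 75309262, minus strand) was all but unread in F cells. Its level ran from 0 to 0.56 CPM (median 0) among F cells and from 0 to 1105 CPM (median 0.83) among P cells. It was found in 2 F cells, F11 and F2, and 30 of the 59 P cells lay above the highest F cell, while the rest of the P cells overlapped with the F cells at or near 0. The 25 F cells held 4 counts of Sv2b and the 59 P cells 44834, and it was found in 8% of F cells (95% exact interval 0.98 to 26%) and 54.2% of P cells (40.8 to 67.3%). The log2 fold was -7.18, and -7.08 without the 16 libraries. It was -5.48 among the 3 F and 6 P cells whose reads were called with bcl2fastq 1.8.4 and -7.31 among the 22 F and 53 P cells of the later version. At an equal depth of 500000 counts per cell, 0 of 13 F cells and 30 of 47 P cells had a count. When each F cell was set against each P cell, the P cell had the higher level in 75% of the 1475 pairs, with ties shared.

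Sv2a (ENSMUSG00000038486.9, chromosome 3, 96181151 to 96195521, plus strand), the SV2 form found at most synapses of the brain, was present in both groups. It ran from 0 to 1154 CPM in F cells and from 0 to 1368 CPM in P cells, with medians of 0 in both, and was found in 12 of 25 and 27 of 59 cells. Among the 9 other F cells it was between 279 and 743 CPM in F1, F2, F5 and F6 and under 1 CPM in the remaining 5. The groups overlapped over nearly their whole range, and the log2 fold was 0.76, or 1.48 without the 16 libraries. Sv2c, the form of basal forebrain and basal ganglia, had 7 counts in each group, in 2 F and 4 P cells.

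The share of each paralog within a cell does not depend on the cell's total. It is a share of raw counts and, here and for the other families below, was not corrected for exon length. Of the F cells 7 had at least 10 counts of the SV2 family, and in all 7 Sv2a made up at least 99.3% of them. In 32 P cells Sv2b held a median of 90.3% and a mean of 69.1%, and it was the majority form in 24 of the 32. The groups differed in the main form but did overlap, since Sv2a was the majority form in the other 8 P cells and the only one in P31, P67 and P72, with 99.5% in P36. Of these 4, P67 carried 12564 CPM of GABAergic markers, the most of any P cell, against 63.6 CPM of glutamatergic markers, whereas P36 had 6.77 and 4261 CPM, P72 142 and 4478 CPM, and P31 68 and 355 CPM. Among the 4 other F cells with enough counts, F1, F2, F5 and F6, Sv2a held a mean of 99.8%.

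**Figure D3:**
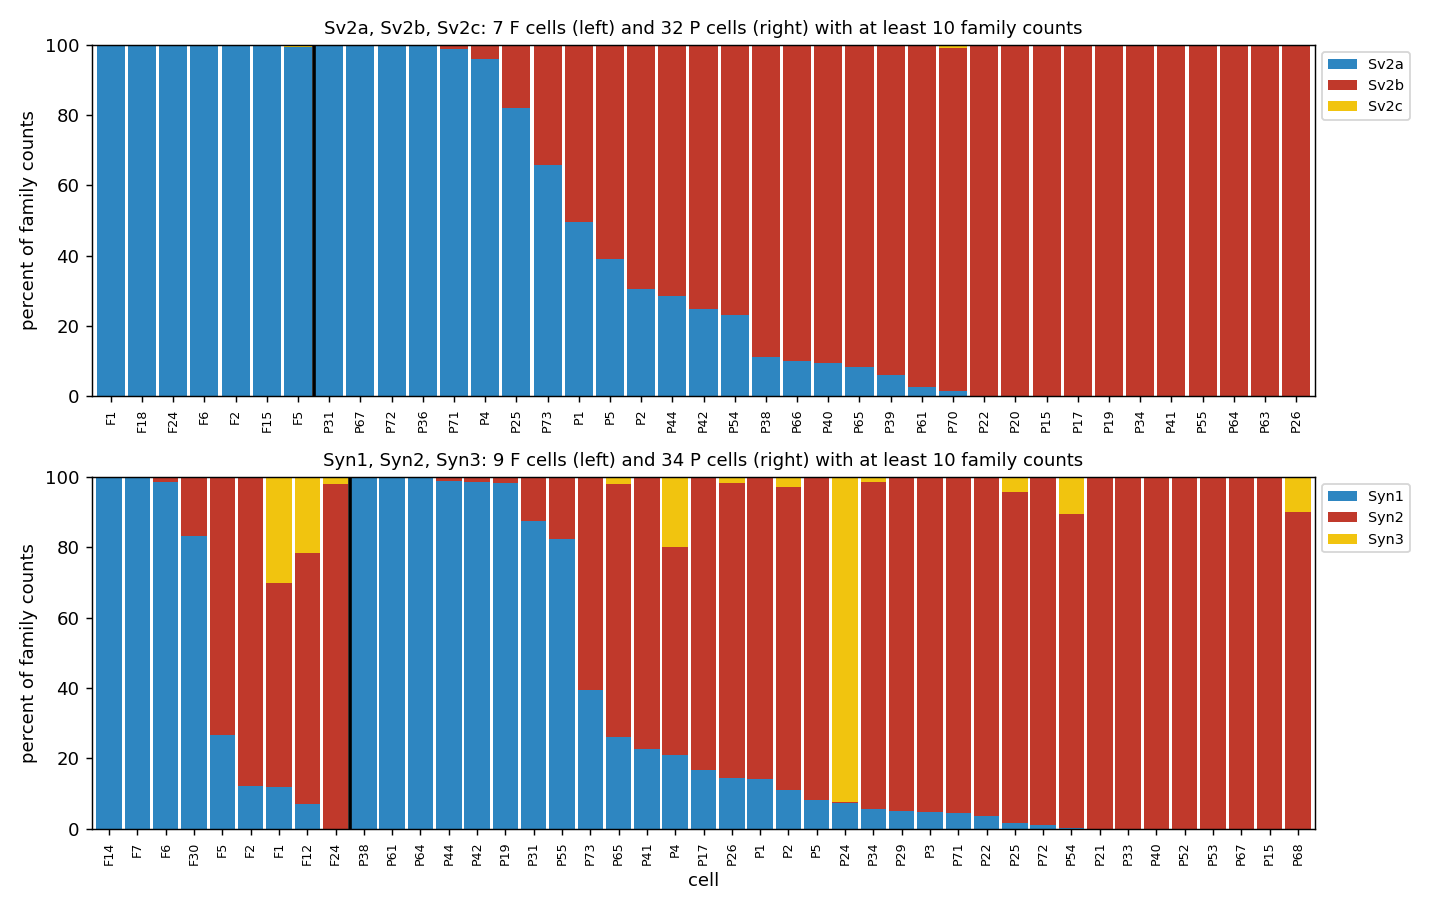
Percent of each cell's SV2 counts (upper panel) and synapsin counts (lower panel) that came from each paralog, 1 bar per cell with at least 10 counts of the family, F cells left of the black line. All 7 F bars of the SV2 panel are Sv2a, while Sv2b fills the larger part of 24 of 32 P bars; in the synapsin panel both groups hold cells led by Syn1 and cells led by Syn2.

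Syn2 had the higher mean level in P cells and Syn1 in F cells. Syn2 (ENSMUSG00000009394.13, chromosome 6, 115134902 to 115282006, plus strand) ran from 0 to 1372 CPM (median 0) among F cells and from 0 to 7885 CPM (median 2.39) among P cells. Only 5 P cells lay above the highest F cell, F5, so the groups overlapped widely. The log2 fold of Syn2 was -2.31 over all cells but -0.89 without the 16 libraries, and it was below 0 within both bcl2fastq versions (-0.63 and -2.57). Across the 59 P cells Syn2 had a Spearman correlation of 0.38 with the summed microglial markers, 0.37 with the GABAergic, -0.072 with the glutamatergic ones and 0.31 with the cell total, whose part in the result was not tested. Syn1 (ENSMUSG00000037217.15, chromosome X, 20860511 to 20921004, minus strand) had a log2 fold of 0.87, or 2.23 without the 16, and -0.028 when F5 was left out of all F cells. Its lowest, median and highest levels were 0, 0 and 496 CPM in F cells and 0, 0.62 and 231 CPM in P cells.

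All 9 other F cells held Syn1, at 0.37 to 496 CPM with a median of 20.5 CPM, whereas only 2 of the 16 did. P cells with it numbered 34 of 59. Within cells that had at least 10 synapsin counts, Syn2 held a mean of 45.2% in 9 F cells and 67.1% in 34 P cells, and Syn1 48.9% and 28.6%. Cells led by either paralog occurred in both groups: Syn2 was the majority form in 5 of the 9 F cells and 25 of the 34 P cells. Syn3 was low, with mean levels of 8.69 and 5.10 CPM, and F1 alone supplied 97.3% of its F mean. The log2 fold of Syn3 was 0.67, and -2.29 without F1, and part of its exons overlap Timp3 on the other strand.

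VAMP genes, the vesicle SNAREs, were read poorly, and no direction between the groups was steady for the 2 neuronal ones. Vamp2, the main vesicle SNARE of cortical synapses, ran from 0 to 50.1 CPM in F cells (found in 7) and from 0 to 466 CPM in P cells (found in 33). Only 2 P cells lay above the highest F cell. Its mean per kilobase of exon, a correction that the paralog shares lack, was 1.13 CPM among F and 4.56 CPM among P cells. For its partner Snap25 the means were 407 and 287 CPM. The log2 fold of Vamp2 was -1.79, but 1.53 among the cells of version 1.8.4. Vamp1, its relative of spinal cord and brainstem synapses, was found in 3 F and 8 P cells. P42 held 92.9% of the P sum of Vamp1, and the log2 fold of -1.11 became 2.43 without that cell and 0.33 without the 16 libraries. In cells with at least 10 counts of the pair, Vamp2 held a mean of 51.4% in 6 F cells and 83.4% in 24 P cells, and both forms led some cells of each group.

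The other VAMPs serve endosomal, lysosomal and surface traffic. Vamp8, an endosomal SNARE, had no count in any F cell and was found in 9 P cells, with up to 598 CPM in P16. By pooled counts it was at least 474.7-fold lower in F cells, taking 3 counts over the F group as the floor. P16 held 76% of the pooled P counts of Vamp8, and without P16 the bound was 118-fold. The same cell carried 12327 CPM of astrocyte, 7336 CPM of oligodendrocyte and 2687 CPM of microglial markers, whose part was not tested. Vamp5 had a log2 fold of -2.68, and -0.73 without P16. Vamp3, the general relative of Vamp2, had one of -2.33, which became 2.00 without P21, and Vamp4 one of -0.23. The F mean of Vamp7 was 259 CPM with 99.2% of it in F23, and its log2 fold was 7.15 over all cells and 0.87 without the 16 libraries. Of the 7 VAMPs, 5 were at least 2-fold lower in F cells, beside 46.4% of all measured genes, and 1 at least 2-fold higher, beside 18.5%.

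Among the synaptotagmins, the fast calcium sensor Syt1 and the widely expressed Syt11, which does not bind calcium, were each found in 19 of 25 F cells, the most of the family there. Syt1 ran from 0 to 21307 CPM (median 159) among F cells and from 0 to 9796 CPM (median 70.7) among P cells. It was found in 19 of 25 and 45 of 59 cells, and only F14 lay above all P cells. The log2 fold of Syt1 was 0.66, 0.39 without the 16 libraries and -0.21 without F14. Syt11 ran from 0 to 9427 CPM (median 25.7) among F cells and from 0 to 6224 CPM (median 79.6) among P cells, and 8.82 to 9427 CPM (median 1993) in the 9 other F cells. The groups overlapped for both genes. Syt2, the fast sensor of many parvalbumin interneurons, was nearly unread, with 2 counts in 1 F cell and 4 counts in 4 P cells.

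Syt4 and Syt7 were more often read in P cells. Syt4, an activity-induced synaptotagmin of dense-core vesicles, had lowest, median and highest levels of 0, 0.85 and 1023 CPM in F cells and of 0, 38.6 and 5067 CPM in P cells. A count was present in 13 of 25 and 43 of 59 cells, and 9 P cells lay above the highest F cell. Its log2 fold was -2.26, and it stayed between -2.94 and -1.67 under 19 alternatives. Part of its exons overlap the predicted gene Gm26658 on the other strand. Syt7, a slow sensor linked to asynchronous release and facilitation, had 0, 0.54 and 1084 CPM in F cells and 0, 67 and 2241 CPM in P cells. Its log2 fold of -1.41 over all cells was -0.10 without the 16 libraries, where the median of the 9 F cells was 159 CPM, so for Syt7 the difference rested on the 16.

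Syt5, a calcium-binding synaptotagmin, was lower in F cells, found in 5 of 25 and 27 of 59 cells, with log2 folds of -2.22 over all cells and -1.06 without the 16. Syt13, a synaptotagmin without calcium-binding residues, went the other way through F11, F12 and F18, the F cells that lay above all P cells. It ran from 0 to 28960 CPM (median 0) among F cells and from 0 to 5879 CPM (median 0.21) among P cells. F11 and F12, at 27201 and 28960 CPM, were also the most alike of any pair of libraries, with a Pearson correlation of log2(CPM + 1) of 0.96 across 11324 genes, which are not independent replicates. The log2 fold of Syt13 was 3.44 over all cells and 0.73 without F11 and F12, and 0.28 among the cells of version 1.8.4. Syt16, a synaptotagmin without calcium binding, was found in 4 F and 17 P cells. Its log2 fold was -1.20, and further below 0 without F7, at -6.60. Syt9, Syt3 and Syt6, calcium-binding forms, had log2 folds of 0.66, -0.18 and -0.41 with mean levels under 8 CPM in both groups. Of the 7 synaptotagmins not measured, Syt17 reached 2578 CPM in P41 and Syt12 255 CPM in P73, while Syt2, Syt8, Syt10, Syt14 and Syt15 stayed under 10 CPM in every cell. Of the 10 measured synaptotagmins, 1 was at least 2-fold higher in F cells, beside 18.5% of all measured genes, and 4 at least 2-fold lower, beside 46.4%.

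**Figure D4:**
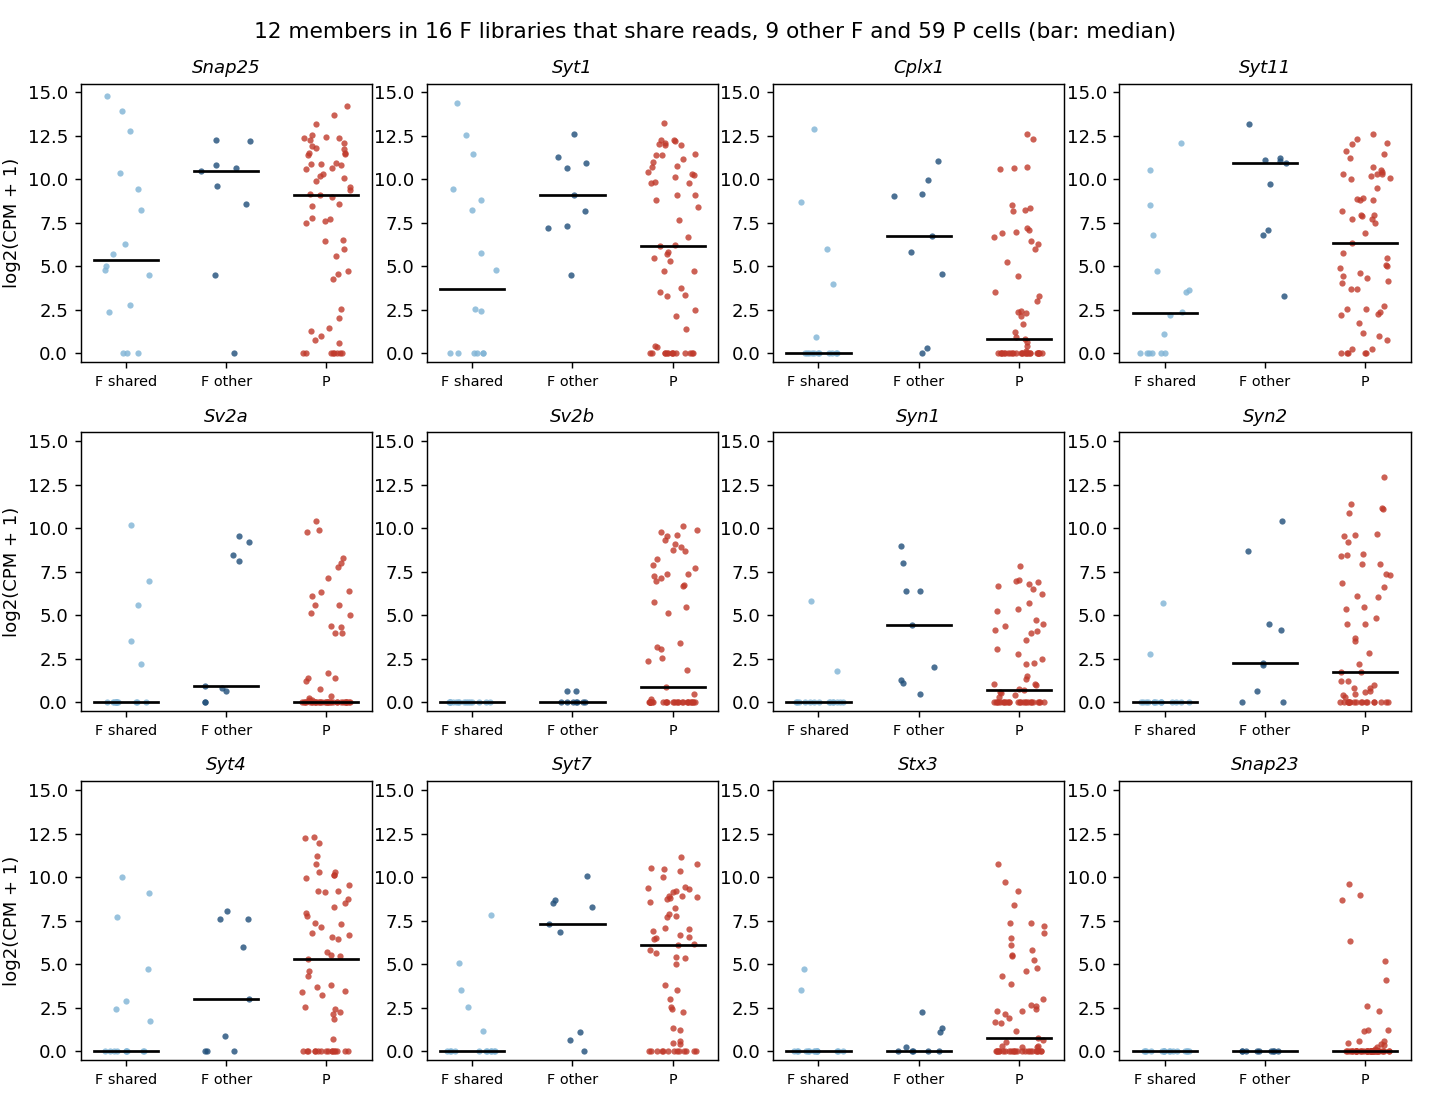
Levels of 12 members as log2(CPM + 1), 1 point per cell, for the 16 F libraries that share reads (F shared), the 9 other F cells (F other) and the 59 P cells; bars are medians. Snap25, Syt1, Cplx1 and Syt11 overlap between the 9 other F and the P cells, whereas Sv2b and Snap23 reach above 8 on this scale in P cells and stay below 1 in all F cells.

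On the target membrane, the neuronal SNARE Snap25 (ENSMUSG00000027273.13, chromosome 2, 136713453 to 136782428, plus strand) did not set the groups apart. It ran from 0 to 28579 CPM (median 308) among F cells and from 0 to 19069 CPM (median 540.2) among P cells. Its log2 fold was 0.50, but -0.17 without the 16 libraries and -0.21 without F13 alone, which held 41.3% of the F sum. Per kilobase of exon Snap25 had the highest mean of all members in P cells, at 287 CPM, followed by Syt11 at 145, Cplx1 at 144, Syt1 at 137 and Syt4 at 126 CPM. In F cells Syt13 came first at 695 CPM, then Snap25 at 407, Cplx1 at 228 and Syt1 at 216 CPM. These neighbours in the order differ by far less than the spread between cells. The F order also rests on few cells. F11 and F12, at 27201 and 28960 CPM, held most of the F sum of Syt13, and F28 alone, at 7570 CPM, most of that of Cplx1.

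Snap23, the form of Snap25 that serves fusion in most tissues, was read in P cells only. It had no count in 25 F cells, and 0 of 25 allows, at 3 cells, up to 12% of cells with a count, which is not a limit on cells that express it. It was found in 18 of 59 P cells at up to 780 CPM. P cells held 7697 counts of Snap23, so that by pooled counts it was at least 543.9-fold lower in F cells, with the floor of 3 counts. P16 alone held 86.6% of these counts, and without P16 the bound was 76.1-fold. At 500000 counts per cell 0 of 13 F cells and 11 of 47 P cells had it, and P16, its highest cell, held 42.5% of the summed CPM of P cells. P16 also carried 12327 CPM of astrocyte, 7336 CPM of oligodendrocyte, 2687 CPM of microglial and 225 CPM of endothelial and mural markers. Its glutamatergic markers summed to 3023 CPM. Across the 59 P cells the level of Snap23 had a Spearman correlation of 0.15 with the summed microglial markers and 0.09 with the cell total, from the same libraries. The part of other cell types in these counts was not tested. Snap47, a SNAP-25 relative of intracellular membranes whose exons partly overlap Jmjd4 on the other strand, had the higher mean in F cells, at log2 folds of 1.22 over all cells and 1.97 without the 16. Its highest level was 1606 CPM among F and 1387 CPM among P cells, its medians were 0, and the groups overlapped. Snap29, which serves endosomal and autophagic fusion, was found in 3 F and 16 P cells, with a log2 fold of -0.41 that became 0.48 without P52. Snap25 held a mean of 72.9% of the counts of the 4 relatives in 20 F cells and 88.2% in 45 P cells, and Snap47 26.2% and 7.14%.

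Stx1a, the best-known target SNARE of the synapse, was sparse and was found in 4 of 25 F and 23 of 59 P cells, at 0 to 271 and 0 to 188 CPM with medians of 0. F1 alone held 99.1% of the F sum of Stx1a, and the log2 fold was -0.52 with it, -3.96 without it and 0.86 without the 16 libraries. No direction can be read for Stx1a from these cells.

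Stx3, the syntaxin of apical membranes, ribbon synapses and dendritic exocytosis, showed the steadiest difference among the syntaxins. It ran from 0 to 25.7 CPM (median 0) among F cells and from 0 to 1706 CPM (median 0.71) among P cells. It was found in 6 of 25 and 36 of 59 cells, with 18 counts in all F cells against 17743, and 15 P cells lay above the highest F cell. The log2 fold of Stx3 was -4.83, -5.49 without the 16 libraries, and -6.55 and -4.67 within the earlier and the later version. At 500000 counts per cell, 2 of 13 F cells and 23 of 47 P cells had it. Stx2, a plasma membrane syntaxin, was similar in direction, found in 3 F and 21 P cells with a log2 fold of -6.56, although P31 held 59% of the P sum.

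Other syntaxins went in both directions. Stx4a, a plasma membrane syntaxin, had a log2 fold of 1.93, with 88.2% of the F sum in F30, and -1.03 without that cell. Stx7 and Stx17, an endosomal and an autophagosomal form, had log2 folds of 1.66 and 1.56, which became -1.26 without F7 and -2.04 without F6. Stx12, an endosomal form, had 90.5% of its F sum in F1 and a log2 fold of 0.19, or -2.94 without that cell. Stx16, of the trans-Golgi, had 98.2% of its F sum in F24 and log2 folds of 0.54 over all cells and -7.04 without the 16. Stx18, Stx6, Stx8 and Stx5a, of the secretory and endosomal pathways, had log2 folds of -5.57, -3.86, -3.26 and -2.54, and each stayed below -1.19 without the 16 libraries or without its highest F or P cell. Stx18 shares over 10% of its exon bases with Nsg1 on the other strand, so its counts are uncertain. Stx11 and Stx19, which were not measured, had a count in 1 and 3 cells. In all, 3 of the 13 measured syntaxins were at least 2-fold higher in F cells, beside 18.5% of all measured genes. A further 7 were at least 2-fold lower, beside 46.4%, so both counts lie close to the shares of all genes. The median log2 fold of the syntaxins was -2.54, beside -0.79 for all measured genes.

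Among the syntaxin-binding proteins, tomosyn, encoded by Stxbp5, binds syntaxin and SNAP-25 and holds back vesicle priming. It was found in 7 of 25 F and 32 of 59 P cells, at 0 to 387 and 0 to 5824 CPM. Its log2 fold was -2.11, -1.58 without the 16, -0.87 without P63 and -0.14 among the cells of version 1.8.4. Stxbp4, a syntaxin-4 binding protein of insulin-responsive cells, was found in 4 F and 21 P cells, with highest levels of 3.57 and 179 CPM and log2 folds of -3.12 and -3.09 with and without the 16. Across the 59 P cells Stxbp4 had Spearman correlations of 0.40 with the summed microglial markers, 0.34 with the oligodendrocyte and 0.28 with the GABAergic ones. With the cell total it was 0.37, and the part of these in the result was not tested. Stxbp2, a syntaxin-binding protein of blood cells and epithelia, had a log2 fold of -5.01, found in 2 F and 15 P cells. Stxbp5l, a second tomosyn, was found in 8 F and 36 P cells with log2 folds of -0.14 over all cells and -0.98 without the 16. Stxbp6 and Stxbp3a had log2 folds of 0.34 and -0.41, which were -3.96 without F6 and -1.59 without F5.

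Cplx1 and Cplx2, the complexins of the forebrain, gave no steady direction. Cplx1 ran from 0 to 7570 CPM (median 0.23) among F cells and from 0 to 6320 CPM (median 0.75) among P cells, and in the 9 other F cells the median was 109 CPM. Its log2 fold was 0.66, and -0.63 without F28, which held 60.8% of the F sum. Cplx2 had a log2 fold of 1.12, -0.021 without the 16 libraries and -0.64 without F14. A count was present in 12 of the F and 20 of the P cells. Cplx3 and Cplx4, the complexins of retina and a few other neurons, were found in 2 and 3 of the 84 cells, Cplx3 at 432 CPM in P26. Cplx1 was the main form in both groups, with a mean share of 68.8% in 12 F cells and 75.4% in 25 P cells with at least 10 counts of the pair.

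**Figure D5:**
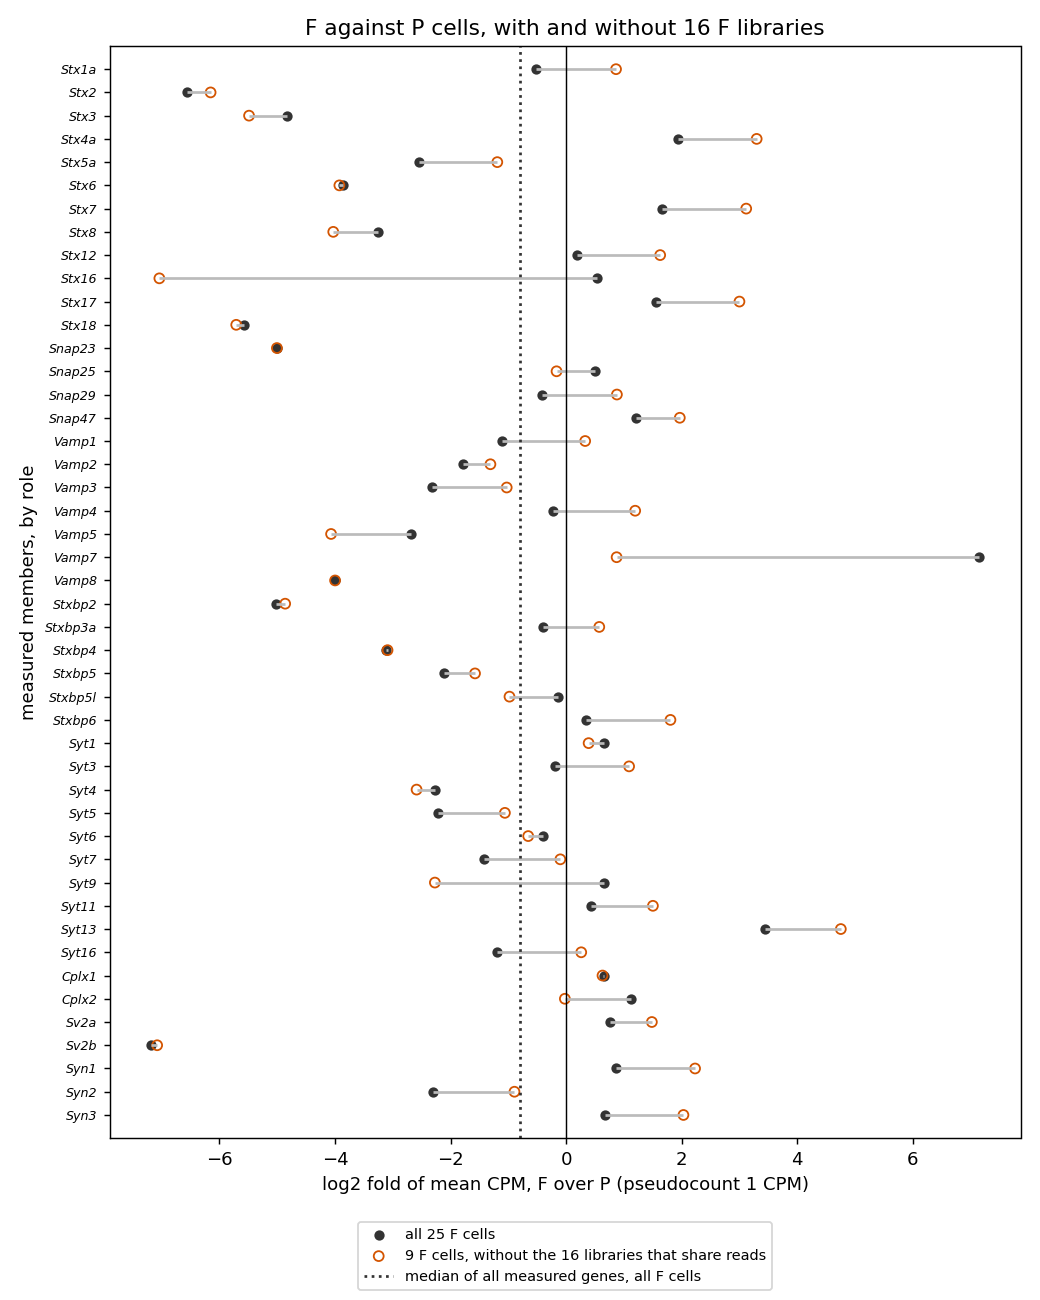
Log2 fold of mean CPM, F over P (pseudocount 1 CPM), of 46 of the measured members by role, with all 25 F cells (filled) and with the 9 F cells outside the libraries that share reads (open), and the median of all measured genes (dotted, -0.79). Sv2b, Stx3, Stx2 and Snap23 lie far to the left both ways, whereas Stx16 and Vamp7 move by several log2 units.

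Across 19 alternatives, which were other scalings, means and cell sets and the leave-one-out extremes, Sv2b, Stx3, Syt4 and Syt5 stayed at least 2-fold lower in F cells. Syn2, Snap23, Stx2, Stxbp4, Stxbp5 and Syt7 kept a log2 fold below 0 in all of them but came within 2-fold in some, and Snap47 and Syt13 likewise kept one above 0. By pairs of cells, the P cell was the higher in at least 60% of pairs for 13 of the 48 members, beside 11.2% of all measured genes, and the F cell for 0, beside 2.87%. After thinning to 86539 counts these numbers were 5, beside 4.83%, and 0, beside 1.72%. With every cell at 500000 counts they were 6, beside 6.67%, and 2, beside 6.38%.

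Members varied together only loosely from P cell to P cell. For the 15 members found in at least 30 P cells, the 105 Spearman correlations of CPM ran from -0.11 to 0.65, with a median of 0.31, over 59 cells that share their library depth between genes. With cells at 500000 counts the range was -0.25 to 0.57 and the median 0.18, over 47 cells. The highest was between Sv2b and Syt7, at 0.65 and 0.57 at equal depth. Syt1 and Syt4 followed at 0.63 and 0.47, and Syt7 and Syt13 at 0.61 and 0.49.

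Other genes of the vesicle cycle were read for comparison. The active zone and priming list (Unc13, Rims, Bassoon, liprins, Rab3 and relatives) had 6 of 24 measured genes at least 2-fold higher and 9 at least 2-fold lower in F cells. Over all measured genes these shares were 18.5% and 46.4%. Among the lower were Erc2, Erc1 and Ppfia3, scaffold proteins of the active zone, with log2 folds of -5.69, -4.37 and -3.87, and -4.60, -4.47 and -2.69 without the 16 libraries. Rab3b, a vesicle GTPase, was higher at 1.02, and 2.47 without the 16. A list of 6 genes held those that take spent SNARE complexes apart (Nsf, Napa, Napb and Napg), with the SNAP-25 chaperone Dnajc5 and the SNAP-25 binding protein Snapin. Of the 6, 3 were at least 2-fold lower in F cells, beside 46.4% of all measured genes, and none higher, beside 18.5%. The 3 were Nsf, the ATPase, at -1.34, and its adaptors Napb and Napg at -1.59 and -2.53. Without the 16, Napg was the 1 gene at least 2-fold lower, at -1.16, and Snapin the 1 at least 2-fold higher, at 2.19. Beside them, 45.6% of all measured genes were lower and 19.3% higher. The median over the 6 was -0.36.

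Of 13 other measured membrane proteins of the vesicle, 3 were at least 2-fold higher and 5 at least 2-fold lower, beside 18.5% and 46.4% of all measured genes. They include the transmitter transporters, Slc32a1 for GABA at 2.43 and Slc17a7 for glutamate at -3.88, both of which are also among the cell type markers. The endocytosis list had 4 of 18 genes at least 2-fold higher and 8 at least 2-fold lower, beside the same 18.5% and 46.4%. Dnm1, the neuronal dynamin, stood at -1.40 over all cells and -0.042 without the 16, and Amph, its partner amphiphysin, at -2.28 and -0.81. Synj1 stood at -1.22 and -0.77. Among the higher were Itsn1 at 2.20 and 0.69, Cltc at 1.63 and -0.44, and Bin1 at 2.03 and 3.46. F28 held 75.1% of the F sum of Itsn1, and F23 66.4% of that of Cltc.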

How the data were processed

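Single-neuron libraries were made with a stranded TruSeq kit after amplification of polyadenylated RNA, per the labels' protocols. Reads were base-called with bcl2fastq 1.8.4 (3 F and 6 P cells) or 2.17 (22 F and 53 P cells) and aligned with STAR 2.4.0 to mm10, per the submitters' processing notes. Neither the counter nor its annotation, strand setting and filters are stated in the labels and notes used here. The deposited values are raw counts per gene symbol, whole numbers in 84 columns.

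Counts were divided by the cell total to give CPM and averaged over the cells of a group. The log2 fold used a pseudocount of 1 CPM, and genes with a count in fewer than 8 cells were not counted as measured. Pair shares compared each F cell with each P cell (1475 pairs). Detection has exact Clopper-Pearson 95% intervals, a detection of 0 has the limit that 3 cells of the total give, and these and the floor of 3 counts cover the draw of cells or counting error only, since amplified reads are not independent molecules. Thinning drew counts without replacement to 86539, the 10th percentile of totals, or to 500000 (13 F and 47 P cells left), and paralog shares used cells with at least 10 family counts. Because each group is 1 sample, no p-value was made. F11 and F12 were alike, and their counts differed beyond sampling noise. That difference cannot decide whether they came from separate cells, since separate amplification also adds to it. Both entered, and both are among the F cells outside the 16. The 16 F libraries were picked by at least 2 counts each of Klhl18, Celsr1 and Pno1; all are of the later bcl2fastq version, and 0 P libraries met this rule.

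The members and lists were chosen with earlier results of these data known, although the rule that picks members goes by name and uses no measured value. Full values are given for 16 genes of the core fusion machinery and for every other measured member with a fold of at least 2 and a count in at least 30% of the cells of the higher group, 27 in all, of which 2 are not reported here; from each other list, up to 3 genes a direction were eligible by pair share. Stx7, Stx17, Stx16, Vamp7, Syt11 and the further members outside this rule were named after their values were seen. Gene positions are from GENCODE M21 on mm10, which matched all 60 members, and promoter windows from RefSeq matched 45. Of the 60, 14 share exon bases with a gene on the other strand, over 10% of their length in Snap47, Stx18, Syn3, Syt4 and Syt12, where the strand setting could split reads. Python 3.11.15, pandas 2.3.3, scipy 1.17.1 and edgeR 4.0.16 (TMMwsp library sizes only) were used, and the fold was tested on simulated data. Alternatives were other scalings, means, filters, pseudocounts, thinning, leaving out libraries or each cell (for all members the highest F and the highest P cell, added after seeing the data), and each bcl2fastq version alone.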

Additional observations from a re-analysis of the deposited data

How the results depend on the processing

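No paired analysis was possible because the numbers in the titles only name cells and no result comes from a test. Of 145 alternative values of the counts, medians and shares over members, 132 lay within 1.5 times the reported value or the spread between members or cells, and 13 did not. Of 475 alternative log2 folds of single members, 435 moved by less than the spread between cells and 21 moved by more. The remaining 19 turned the sign of a difference of at least 2-fold. That spread is wide, with a median standard deviation of 2.38 log2 units, so the 435 are not all steady folds. Folds under 2-fold that turned their sign are not among the 19. Such turns occurred for Stx1a, Snap25, Syt1, Syt2, Cplx1, Sv2a, Syn1 and Syn3. The cause was not tested.

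Members higher in F cells, 19 as reported, numbered 8 with trimmed means and 12 by the difference of mean log2(CPM + 1). Those at least 2-fold higher, 7 as reported, numbered 2 and 0 under the same settings, 15 in bcl2fastq 1.8.4 alone and 13 without the 16 libraries. Those at least 2-fold lower, 22 as reported, numbered 11 with trimmed means, 9 by the log2 difference and 11 of 32 when a count in at least 21 cells was required. With each cell left out in turn these 3 counts ran from 15 to 21, 5 to 9 and 21 to 25, and the median log2 fold from -1.10 to -0.33. In F cells with at least 1 SV2 count, Sv2a held a mean of 95.7% and Sv2b 4.18%, against 99.8% and 0.028% in cells with at least 10. The Vamp2 share of P cells was 32.6% of pooled counts, against a mean of 83.4%. The median of members found per F cell was 22 without the 16 libraries, against 12.

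Vamp1 turned to 1.88 with pooled counts, 0.32 by the log2 difference, 7.45 in version 1.8.4, 0.33 without the 16 libraries and 2.43 without P42 (leave-one-out range -2.71 to 2.43), and Vamp2 to 1.53 in version 1.8.4. Cplx2 turned to -0.97 with pooled counts, -4.72 in version 1.8.4, -0.021 without the 16 and -0.64 without F14 (leave-one-out range -0.64 to 1.53). Stx4a turned to -0.083 with trimmed means and -1.03 without F30 (leave-one-out range -1.03 to 2.72). Sv2c, at 7 counts in each group, went from -1.03 to 0.16 with pooled counts, 0.049 by the log2 difference, 0.61 thinned to 86539 counts, 0.47 without libraries under 100000 or 500000 counts, and 0.39 thinned to 500000 or without P56 (leave-one-out range -1.28 to 0.39).

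The settings without libraries under 500000 counts, thinned to 500000, without P16 (for single folds and for the bounds of Snap23 and Vamp8), and without F11 and F12 were chosen after seeing the data. Depth limits the rarer members most, and absence of counts at these totals is not absence of the transcript.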
